A study of Homo sapiens with 8 samples.

Results

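The MAP kinase phosphatase genes DUSP1, DUSP4, DUSP5, DUSP6, DUSP7 and DUSP10 and the Sprouty and Spred genes SPRY2, SPRY4, SPRED1 and SPRED2 were examined in SK-UT-1 cells, an established line from a human uterine leiomyosarcoma. They were taken by gene name from the table of counts, and all 10 were found among its 60282 genes. They had been named with the difference between TP-472 and vehicle in these libraries already known. That difference is therefore given for them as a description. Calls of members are counted only beside the share of all genes called, and no p-value is given for a member. The cells received the BRD9/7 inhibitor TP-472 at 5 µM for 48 h or the DMSO vehicle, with 4 libraries in each group. The study's methods state that its experiments used biological replicates, while the sample descriptions do not say whether these libraries came from separate cultures. The p-values below measure the spread between these libraries, which may be technical. The results hold for 1 cell line at 1 dose and time. Library totals ran from 32574672 to 36634103 counts in the vehicle group and from 36246277 to 38545464 counts in the TP-472 group.

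Growth factor receptors activate RAS, and the kinases RAF, MEK and ERK then activate each other in turn. MAP kinase phosphatases remove the phosphates from both the threonine and the tyrosine that switch a MAP kinase on. Sprouty proteins act between the receptor and RAF, and Spred proteins bring neurofibromin, which switches RAS off, to the membrane. Many of these genes are themselves induced by ERK, so that they form a negative feedback loop, and transcripts such as DUSP6, SPRY2 and SPRY4 are widely read as a sign of ERK pathway output.

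RefSeq promoters on build GRCh38.p14 were matched for 8 of the 10 genes (12 start sites), and those of DUSP5 and DUSP4 were not among them. The 250 bases before the start site are shown for DUSP1 and DUSP6, whose levels differed clearly between the groups. They are also shown for DUSP7, whose levels overlapped through vehicle replicate 3. Capitals mark matches to 5 motifs that were searched on both strands in the window from 250 bases before to 50 bases after each start. These were the cyclic AMP response element (TGACGTCA), the AP-1 site (TGANTCA), an ETS site (CCGGAAGT), the TATA box (TATAAA) and the CArG box bound by serum response factor. All 3 regions lie on the minus strand, at chr5:172771196-172771445 for DUSP1, chr12:89352502-89352751 for DUSP6 and chr3:52056572-52056821 for DUSP7.
DUSP1: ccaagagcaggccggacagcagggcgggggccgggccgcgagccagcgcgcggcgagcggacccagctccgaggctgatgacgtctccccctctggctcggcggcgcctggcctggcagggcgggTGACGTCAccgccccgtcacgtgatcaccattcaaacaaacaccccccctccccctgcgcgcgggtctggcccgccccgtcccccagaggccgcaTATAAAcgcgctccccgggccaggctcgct
DUSP6: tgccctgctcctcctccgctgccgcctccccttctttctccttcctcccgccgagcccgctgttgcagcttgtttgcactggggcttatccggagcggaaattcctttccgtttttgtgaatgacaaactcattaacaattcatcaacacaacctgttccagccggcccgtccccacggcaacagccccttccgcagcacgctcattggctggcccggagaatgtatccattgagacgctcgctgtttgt
DUSP7: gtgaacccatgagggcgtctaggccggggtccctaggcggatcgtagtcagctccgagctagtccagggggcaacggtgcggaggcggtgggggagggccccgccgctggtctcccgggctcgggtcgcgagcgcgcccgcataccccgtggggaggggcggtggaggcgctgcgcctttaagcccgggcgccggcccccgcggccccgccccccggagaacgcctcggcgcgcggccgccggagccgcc

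DUSP1 held a cyclic AMP response element that began at base -125 and a TATA box that began at base -30. SPRED2 held a TATA box at base -31 and AP-1 sites at bases -6 and 35, all at the second of its start sites. No match overlapped another, and none of the 5 motifs was found in the windows of DUSP6, DUSP7, DUSP10, SPRY2, SPRY4 and SPRED1. Among all 35116 promoters, 1.85% held the cyclic AMP response element, 7.71% the AP-1 site, 4.14% the ETS site, 11.5% the TATA box and 1.29% the CArG box. The GC content of the 250 bases was 74.4% for DUSP1, 57.2% for DUSP6 and 78.4% for DUSP7. These matches describe the letters of the windows and do not show binding.

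Vehicle replicate 3 stood apart from the other libraries. Its median Spearman correlation with the rest of its group was 0.914, against 0.988 to 0.989 for the other vehicle libraries and 0.993 to 0.997 for the TP-472 libraries (across the 14073 genes tested, which are not independent replicates). Its deviation from the other vehicle libraries followed the GC content of the transcripts, with a Spearman correlation across genes of 0.765. It had the highest level among vehicle libraries of 5 members and the lowest of 2. Each result is therefore given with and without it where it matters.

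Of the 10 members, 9 passed the filter on low expression, which kept genes above 1 CPM in 4 or more libraries. CPM is the count as a share of the size of its library. The filter used the library total, and the levels given here used the TMM-scaled size. DUSP10 exceeded 1 CPM in 2 vehicle libraries and SPRY2 in 1, so both passed through the TP-472 group, where they were high. A gene was called at an adjusted p-value under 0.05 from edgeR and a fold change over 1.5. In TP-472-treated cells 6 members were called higher and none lower, beside 12.0% called higher and 14.9% called lower among all 14073 genes tested. Without TP-472 replicate 3, the genes called lower numbered 1387 in place of 2096. The TP-472 libraries all lay above the vehicle libraries for 7 of the 9 members and for 23.8% of all genes tested, and below them for none and for 21.6%. With DESeq2, and with edgeR and no filter, DUSP4 could be fitted and was called as well, which made 7 members called higher and none lower. The background was 11.1% higher and 11.9% lower with DESeq2, and 7.21% higher and 8.13% lower without the filter. With over 5 CPM required, 4 members were called higher and none lower, beside 10.4% and 13.7% of all genes, since DUSP10 and SPRY2 were then not tested. Since the genes were chosen on this contrast, nothing is read from these counts.

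**Figure D1:**
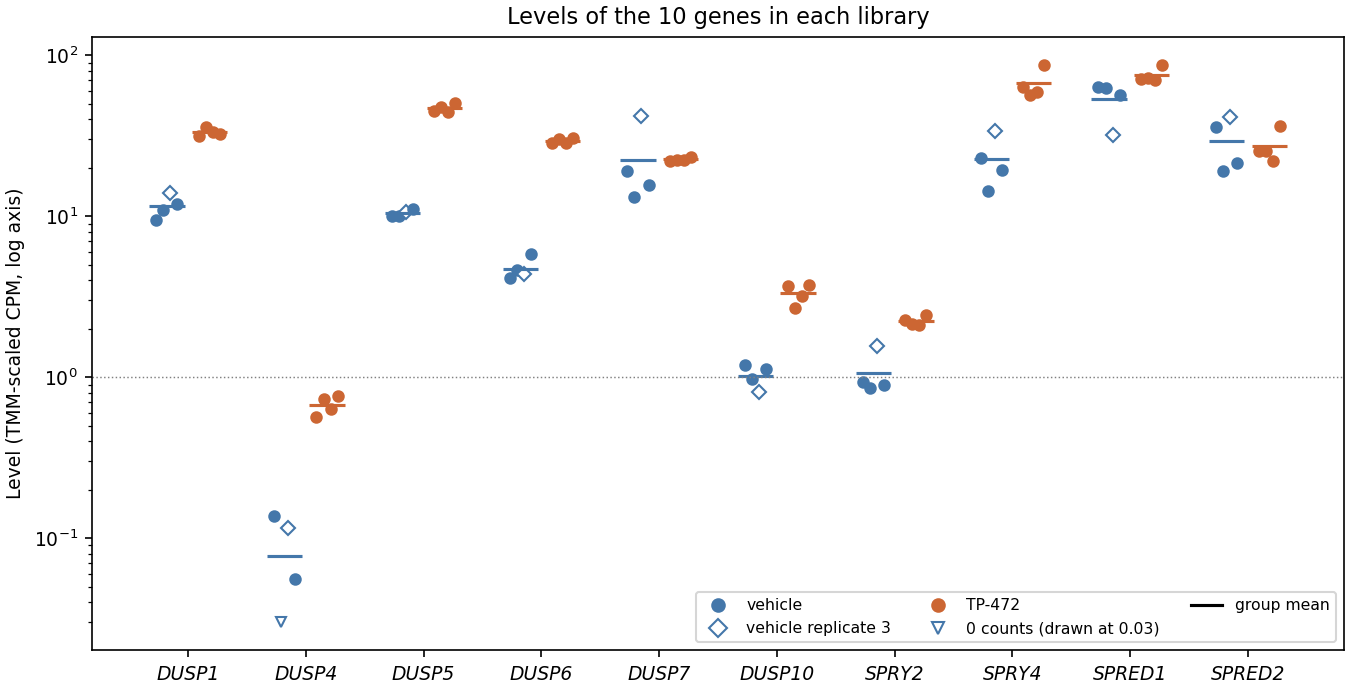
Level of each gene in each library, as TMM-scaled CPM on a log axis. Filled points are libraries, open diamonds mark vehicle replicate 3, the open triangle marks a library with 0 counts, horizontal bars are group means (n = 4) and the dotted line is 1 CPM. The TP-472 libraries lie above all vehicle libraries for every gene except DUSP7 and SPRED2. DUSP4 was under the filter, and 23.8% of all genes tested lie above in the same way.

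DUSP6 encodes a cytoplasmic phosphatase selective for ERK. It lies on chromosome 12 from 89347232 to 89353271 (ENSG00000139318.8). Its level was 4.12, 4.62, 4.36 and 5.83 CPM in vehicle replicates 1 to 4 and 28.3, 30.1, 28.5 and 30.6 CPM in TP-472 replicates 1 to 4. The lowest TP-472 library was far above the highest vehicle library, and both groups were narrow. The difference was 6.20-fold, the widest among the 9 members that passed the filter, with a log2 fold change of 2.63 (SE 0.14). DUSP7 encodes the closest relative of DUSP6 in function, also cytoplasmic and selective for ERK (ENSG00000164086.10; chromosome 3 from 52048919 to 52056550). Its level was 19.1, 13.2, 41.7 and 15.6 CPM in the vehicle libraries and 22.1, 22.4, 22.4 and 23.3 CPM in the TP-472 libraries. The TP-472 libraries lay within the range of the vehicle group, which vehicle replicate 3 stretched upward. The other vehicle libraries all lay below every TP-472 library. DUSP7 had a log2 fold change of 0.01 (SE 0.33) with all libraries and 0.50 (SE 0.11) without vehicle replicate 3.

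DUSP5 encodes a nuclear phosphatase selective for ERK (ENSG00000138166.6; chromosome 10 from 110497838 to 110511544). It was measured at 9.98, 10.0, 10.6 and 11.1 CPM in vehicle and at 44.8, 47.9, 44.3 and 50.8 CPM with TP-472. The groups were far apart and vehicle replicate 3 was like the other vehicle libraries. The log2 fold change of DUSP5 was 2.17 (SE 0.10), or 4.50-fold. DUSP1, the product of an immediate early gene, is a nuclear phosphatase that acts on p38 and JNK as well as ERK (ENSG00000120129.6; chromosome 5 from 172768090 to 172771195). Its level was 9.51, 10.9, 14.0 and 11.9 CPM in vehicle and 31.6, 36.0, 33.6 and 32.4 CPM with TP-472. Vehicle replicate 3 was the highest of its group but stayed below every TP-472 library. DUSP1 had a log2 fold change of 1.53 (SE 0.14), and 1.63 (SE 0.09) without vehicle replicate 3.

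DUSP4, a nuclear phosphatase related to DUSP1, was low in these cells (ENSG00000120875.9; chromosome 8 from 29333064 to 29350668). Its counts were 5, 0, 4 and 2 in the vehicle group and 22, 26, 23 and 29 in the TP-472 group, in order of replicate number, and it did not pass the filter. All TP-472 libraries held more counts than any vehicle library, at levels still under 1 CPM. Summed over the libraries and scaled for library size, the ratio of 100 to 11 counts was 8.66. This ratio describes the few counts of a gene chosen on this contrast, and the spread between libraries does not enter it. DUSP10 encodes a phosphatase that prefers p38 and JNK to ERK (ENSG00000143507.18; chromosome 1 from 221701424 to 221742176). It was measured at 1.19, 0.975, 0.808 and 1.12 CPM in vehicle and at 3.69, 2.70, 3.21 and 3.72 CPM with TP-472. The groups did not overlap, at levels near the filter. The log2 fold change of DUSP10 was 1.70 (SE 0.20), and 1.60 (SE 0.18) without vehicle replicate 3.

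SPRY4 encodes a Sprouty inhibitor of receptor signalling (ENSG00000187678.9; chromosome 5 from 142310427 to 142326455). Its level was 22.9, 14.3, 34 and 19.3 CPM in vehicle and 63.8, 56.9, 59.1 and 87.4 CPM with TP-472. Vehicle replicate 3 was the highest vehicle library and TP-472 replicate 4 the highest of all, and the groups did not overlap. The log2 fold change of SPRY4 was 1.56 (SE 0.26), and 1.83 (SE 0.19) without vehicle replicate 3. SPRY2 was expressed near the filter (ENSG00000136158.12; chromosome 13 from 80335976 to 80340951). It was measured at 0.940, 0.860, 1.56 and 0.897 CPM in vehicle and at 2.27, 2.14, 2.10 and 2.42 CPM with TP-472. Vehicle replicate 3 was well above the other vehicle libraries and still below the TP-472 group. SPRY2 had a log2 fold change of 1.07 (SE 0.22), and 1.31 (SE 0.16) without that library.

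SPRED1 encodes one of the proteins that bring neurofibromin to RAS. It (ENSG00000166068.13; chromosome 15 from 38252326 to 38357249) had a level of 63.6, 62.4, 32.1 and 56.9 CPM in vehicle and 71.6, 71.9, 70.6 and 86.5 CPM with TP-472. The groups did not overlap, although they lay close together except for vehicle replicate 3. Its log2 fold change was 0.48 (SE 0.20), and 0.30 (SE 0.08) without vehicle replicate 3, both under the limit of 1.5-fold. SPRED2 (ENSG00000198369.10; chromosome 2 from 65310851 to 65432637) had a level of 35.6, 19.1, 41.3 and 21.3 CPM in vehicle and 25.5, 25.2, 22.1 and 36.3 CPM with TP-472. The groups overlapped and each was spread widely. SPRED2 had a log2 fold change of -0.10 (SE 0.27), and 0.11 (SE 0.23) without vehicle replicate 3. In bulk RNA, a change in the share of cells that express a gene and a change in its RNA per cell cannot be told apart.

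**Figure D2:**
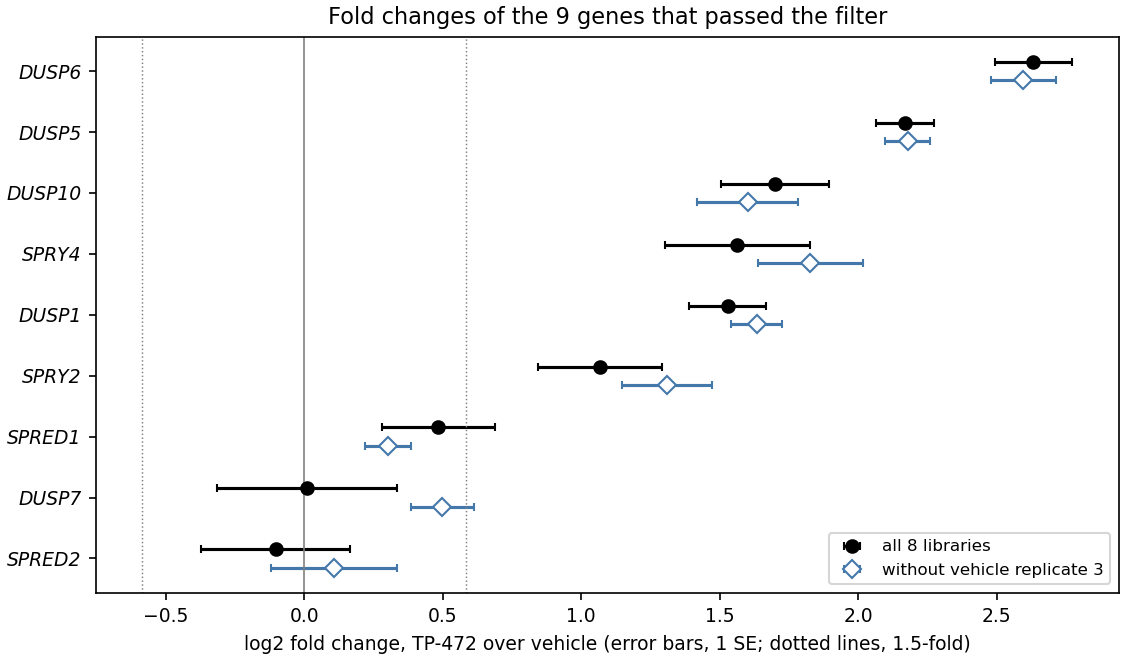
Log2 fold change of TP-472 over vehicle for the 9 members that passed the filter, from edgeR with all 8 libraries (filled circles) and without vehicle replicate 3 (open diamonds), with bars of 1 SE and dotted lines at 1.5-fold. DUSP6 and DUSP5 lie farthest to the right at 2.63 and 2.17, and the position of DUSP7 moves from 0.01 to 0.50 when that library is left out.

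Without vehicle replicate 3, 6 members were called higher and none lower, beside 12.0% and 13.4% of all genes. With each of the 8 libraries left out in turn, the log2 fold change ran from 2.57 to 2.75 for DUSP6, from 2.13 to 2.20 for DUSP5, from 1.60 to 1.79 for DUSP10, from 1.45 to 1.63 for DUSP1, from 1.4 to 1.83 for SPRY4 and from 0.98 to 1.31 for SPRY2. It ran from -0.18 to 0.50 for DUSP7 and from -0.27 to 0.11 for SPRED2, so the sign of both depended on the libraries used. The GC content of the longest transcript was 59.2% for DUSP7 and 38.9% for SPRED1, the extremes among the members. The level of DUSP7 in vehicle replicate 3 was higher than the mean of the other vehicle libraries by 1.4 on the log2 scale, and that of SPRED1 was lower, with a difference of -0.92. Over all genes tested, the same difference had a median of -0.76 for transcripts with up to 40% GC and of 0.69 for those with over 55% and up to 60%. For SPRY2 (48.3% GC) and SPRED2 (48.7% GC) it was 0.76, where transcripts with over 45% and up to 50% GC had a median of -0.09. A fit with each library's GC trend removed was added after the data had been seen. It gave log2 fold changes of 0.42 for DUSP7, 0.36 for SPRED1 and 2.54 for DUSP6, and 6 members were called higher and none lower, beside 13.1% and 15.2% of all genes. With vehicle replicate 3 left out as well, DUSP7 was also called, at 0.60, which made 7 called higher and none lower, beside 12.1% and 13.1% of all genes.

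**Figure D3:**
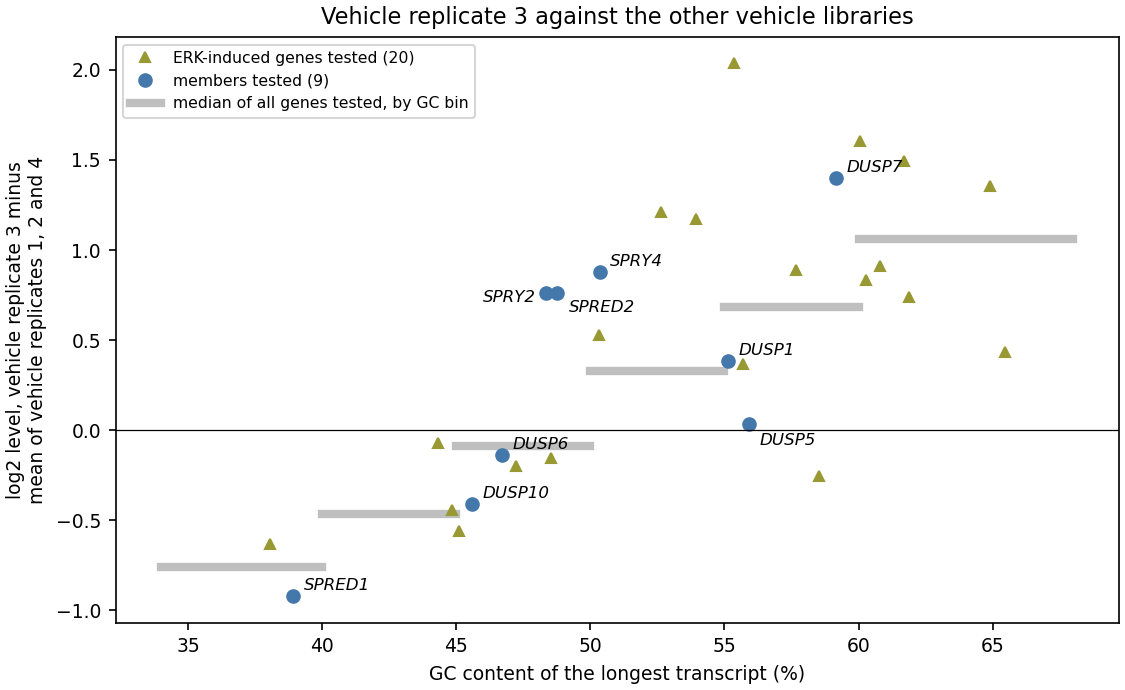
Log2 level in vehicle replicate 3 minus the mean of the other vehicle libraries (vertical axis) against the GC content of the longest transcript in percent (horizontal axis), for the 9 members tested (circles) and 20 ERK-induced genes (triangles). Grey bars are the medians of all genes tested in bins of GC content, of which the outermost are open. The bars climb from -0.76 to 1.06, DUSP7 lies at 1.4 and SPRED1 at -0.92.

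Levels were compared between genes after division by the length of their exons, merged over protein-coding transcripts. The comparison is approximate, since it corrects neither for which transcripts were expressed nor for GC content. In vehicle-treated cells the order by CPM per kilobase of exon was SPRED2 (7.05 ± 2.61), SPRED1 (6.91 ± 1.89), DUSP7 (6.70 ± 3.92), DUSP1 (5.73 ± 0.936), SPRY4 (4.54 ± 1.68) and DUSP5 (4.08 ± 0.214; SD, n = 4 each). Neighbours in this part of the order overlapped in their ranges. DUSP6 followed at 1.04 ± 0.167, below all of these, and DUSP10 (0.382 ± 0.0630) and SPRY2 (0.350 ± 0.109) overlapped with each other. DUSP4 was the lowest, at 0.0107 ± 0.00857. Without vehicle replicate 3 the upper part of the order was SPRED1 (7.84 ± 0.456), SPRED2 (6.09 ± 2.16), DUSP1 (5.33 ± 0.585), DUSP7 (4.78 ± 0.885), DUSP5 (4.06 ± 0.257) and SPRY4 (3.78 ± 0.871; SD, n = 3 each), with neighbours again overlapping. DUSP10 and SPRY2 then no longer overlapped. In TP-472-treated cells DUSP5 (18.4 ± 1.19), DUSP1 (16.5 ± 0.948) and SPRY4 (13.4 ± 2.82) led the order, each overlapping with its neighbour. SPRED1 (9.66 ± 0.971) stood by itself, above DUSP7 (6.75 ± 0.154), SPRED2 (6.56 ± 1.49) and DUSP6 (6.46 ± 0.253), which overlapped. DUSP10 (1.24 ± 0.179), SPRY2 (0.735 ± 0.0482) and DUSP4 (0.0930 ± 0.0123) followed without overlap. DUSP6 thus reached the level per kilobase of DUSP7 in TP-472-treated cells, where in vehicle its highest library was below the lowest of DUSP7. Within the TP-472 group, replicate 4 had the highest level of 9 of the 10 members, all but DUSP1. That library also had the lowest median Spearman correlation with its group, 0.993 against 0.996 to 0.997. How many of all genes were highest in it was not counted, so nothing particular to the members is read from this.

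The genes whose levels over the 8 libraries were most like those of DUSP6 were UTP25 (Pearson r = 0.9986), the chemokine gene CXCL2 (r = 0.9982) and GALNT18 (r = 0.998), and 46 genes outside the members exceeded 0.99. The difference between the groups enters each of these values. CXCL2 had a log2 fold change of 2.61 (SE 0.14), from 4.55 ± 0.643 to 27.7 ± 1.31 CPM (SD, n = 4 each). For SPRED2, the member with the lowest log2 fold change, the nearest were ATP2A2 (r = 0.989), PRDM2 (r = 0.9887) and STAU1 (r = 0.9886). These correlations are descriptions over 8 libraries of 2 groups.

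Calls in the lists that follow stand beside 12.0% called higher and 14.9% called lower among all genes, and 12.0% and 13.4% without vehicle replicate 3. Of the 4 other MAP kinase phosphatases, all tested, 1 was called higher and 1 lower, with a median log2 fold change of -0.09, against -0.03 over all genes tested. Without vehicle replicate 3, 2 were called higher and 1 lower, and the median was 0.58. DUSP2, an inducible nuclear phosphatase known from immune cells, was measured at 1.27, 2.18, 2.19 and 2.10 CPM in vehicle and rose to 8.31, 7.59, 7.55 and 6.82 CPM with TP-472 (log2 fold change 1.97, SE 0.20, adjusted p = 2.53e-04 from edgeR). DUSP16, which prefers JNK and p38, fell from 31.1, 31.0, 26.3 and 29.4 CPM to 18.5, 18.8, 20.9 and 19.3 CPM (log2 fold change -0.60, SE 0.11, adjusted p = 0.00314). The groups did not overlap for either gene, but DUSP16 lay close to the limit of 1.5-fold and was not called without vehicle replicate 1 or 2 (log2 fold change -0.58 in each case). DUSP8, another phosphatase of JNK and p38, was measured at 0.967, 0.717, 5.14 and 1.04 CPM in vehicle and at 2.68, 1.71, 1.88 and 2.37 CPM with TP-472. Its log2 fold change was 0.14 (adjusted p = 0.864) with all libraries, and 1.25 (adjusted p = 0.0013, called higher) without vehicle replicate 3. DUSP9, like DUSP6 selective for ERK, had a log2 fold change of -0.32 (SE 0.25, adjusted p = 0.335).

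Of the remaining Sprouty and Spred genes, SPRY3 and SPRED3 were tested and neither was called, with log2 fold changes of -0.18 (SE 0.24, adjusted p = 0.562) and -0.46 (SE 0.37, adjusted p = 0.346). SPRED3 was at 8.72 CPM in vehicle replicate 3 and between 2.49 and 3.79 CPM in all other libraries. SPRY1 did not pass the filter, with 0, 0, 0 and 4 counts in vehicle and 11, 21, 17 and 26 counts with TP-472. The groups did not overlap. A two-sided exact permutation test gave p = 0.0286, the lowest value possible for groups of 4, and p = 0.1 after adjustment over 7 such genes. SPRY1 was called higher with DESeq2 (adjusted p = 0.00013) and with edgeR and no filter (adjusted p = 0.00347).

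Of 15 genes of atypical dual-specificity phosphatases, most of which act on substrates other than ERK, 9 were tested, 3 were called higher and 1 lower (median 0.36). DUSP14 rose from 15.8 ± 2.54 to 31.9 ± 3.30 CPM (log2 fold change 1.01, adjusted p = 0.00131), DUSP12 from 20.4 ± 5.81 to 37.0 ± 2.86 CPM (0.86, adjusted p = 0.0116) and DUSP3 from 52.6 ± 4.06 to 86.9 ± 2.89 CPM (0.72, adjusted p = 8.84e-04; SD, n = 4 each, edgeR). DUSP22 fell by 0.59 on the log2 scale (adjusted p = 0.0111). It was under the limit of 1.5-fold without vehicle replicate 1 (-0.53), vehicle replicate 3 (-0.54) or TP-472 replicate 3 (-0.55). Below the filter, DUSP26 had 6, 16, 11 and 8 counts in vehicle and 53, 28, 52 and 48 counts with TP-472, without overlap (exact permutation test, p = 0.0286; adjusted p = 0.1). DUSP26 was called higher with DESeq2 (adjusted p = 1.04e-05) and with edgeR and no filter (adjusted p = 0.00189). DUSP15 showed overlapping groups (p = 0.114, exact permutation test; adjusted p = 0.16).

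Of 22 genes known to be induced by ERK 20 were tested, and 12 were called higher and 1 lower, beside 12.0% and 14.9% of all genes, with a median log2 fold change of 0.81. The list was drawn up with earlier results of these libraries known, and 4 of the 22 had been picked by the study from them, so the count is not independent evidence of a direction. IER3, an immediate early gene, rose from 6.60, 10.6, 7.80 and 11.5 CPM to 58.2, 62.5, 58.3 and 49.4 CPM (log2 fold change 2.64, SE 0.19, adjusted p = 5.95e-05). The groups were far apart. ETV4 and ETV5 encode ETS factors that are transcribed downstream of ERK. ETV5 rose from 16.9, 15.8, 14.8 and 16.6 CPM to 50.8, 48.8, 48.1 and 57.2 CPM (log2 fold change 1.68, SE 0.11, adjusted p = 3.86e-05), and ETV4 from 6.77, 6.65, 12.8 and 6.87 CPM to 21.5, 22.0, 22.2 and 20.3 CPM (1.38, SE 0.22, adjusted p = 0.0021). KLF10 rose from 40.8 ± 5.37 to 131 ± 2.54 CPM (SD, n = 4 each; log2 fold change 1.68, adjusted p = 4.37e-05 from edgeR). EPHA4, a receptor tyrosine kinase, fell by 0.73 on the log2 scale (adjusted p = 0.00257).

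FOS and EGR1, the classical immediate early transcription factors of this pathway, were not called. The study reported both as increased by TP-472 in these libraries. EGR1 was measured at 11.0, 7.42, 38.6 and 10.1 CPM in vehicle and at 17.1, 14.3, 13.0 and 18.5 CPM with TP-472 (log2 fold change -0.09, SE 0.48, adjusted p = 0.89). FOS was measured at 12.2, 12.1, 32.4 and 18.4 CPM in vehicle and at 22.0, 24.1, 26.8 and 18.6 CPM with TP-472 (0.28, SE 0.31, adjusted p = 0.488). In both genes vehicle replicate 3 was above every TP-472 library and the other vehicle libraries were below every one. Without it, EGR1 (0.73, adjusted p = 0.00397) and FOS (0.68, adjusted p = 0.0074) were called higher, as were 18 of the 20 genes of this list, beside 12.0% of all genes. Its median was then 1.08, against -2.14e-05 over all genes tested. EGR2 and EGR3 were under the filter, with overlapping groups (exact permutation tests, p = 0.0571 and 0.343; adjusted p = 0.133 and 0.4).

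**Figure D4:**
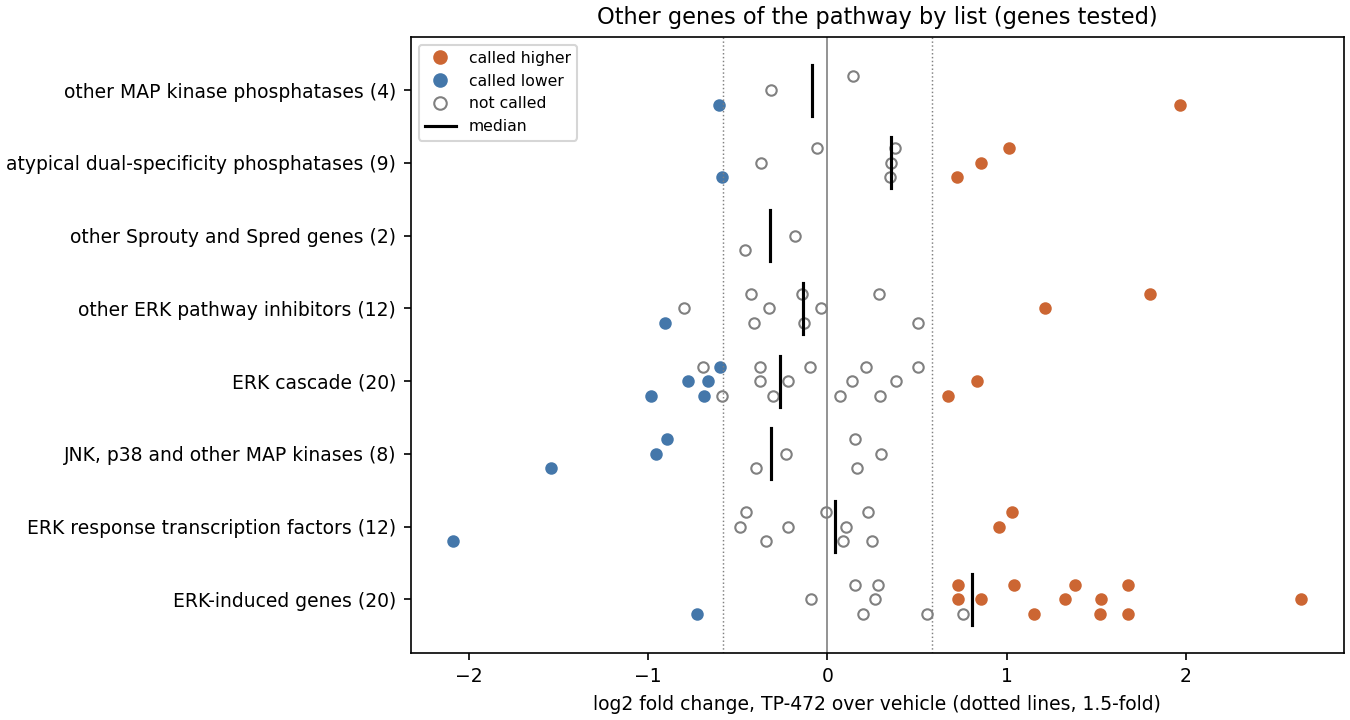
Log2 fold change of TP-472 over vehicle for the tested genes of 8 lists (numbers in parentheses), with all 8 libraries. Orange and blue points were called higher and lower, open points were not called, black bars are medians and dotted lines mark 1.5-fold. The median of the ERK-induced genes is 0.81 and those of the other lists lie between -0.32 and 0.36; without vehicle replicate 3 they are 1.08, and between -0.27 and 0.58.

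Of 12 other inhibitors of the pathway, all tested, 2 were called higher and 1 lower (median -0.14), with 2 called lower without vehicle replicate 2 or TP-472 replicate 4. ERRFI1, a feedback inhibitor of the EGF receptor family, rose from 160, 190, 104 and 195 CPM to 549, 545, 555 and 613 CPM (log2 fold change 1.80, SE 0.19, adjusted p = 3.17e-04). PEA15, which holds ERK in the cytoplasm, rose from 39.5, 44.5, 42.8 and 45.4 CPM to 98.9, 98.1, 102 and 100 CPM (log2 fold change 1.21, SE 0.09, adjusted p = 6.79e-05). IL17RD, an inhibitor of FGF signalling also known as SEF, fell from 19.5, 14.4, 17.5 and 16.3 CPM to 9.09, 8.15, 7.89 and 11.0 CPM (log2 fold change -0.91, SE 0.15, adjusted p = 0.00262). The groups did not overlap for any of these genes.

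In the cascade from RAS to ERK, 2 of 20 genes were called higher and 5 lower (median -0.26), and 1 of the 20 had been picked by the study from these libraries. RRAS2, a RAS relative, rose by 0.84 (adjusted p = 0.0116) and MAP2K1, which encodes a MEK kinase, by 0.67 (adjusted p = 0.00383) on the log2 scale. With the GC trend removed and vehicle replicate 3 left out, MAP2K1 was under the limit of 1.5-fold (0.54) and was not called. MAPK3, which encodes an ERK kinase, fell from 15.4, 21.5, 23.8 and 20.8 CPM to 12.3, 12.3, 13.3 and 9.62 CPM (log2 fold change -0.78, SE 0.16, adjusted p = 0.00727). SHC1, an adaptor of growth factor receptors, fell by 0.69 (adjusted p = 0.00284). MAP2K2, the gene of the other MEK kinase, fell by 0.99 (adjusted p = 0.0374), with 101, 84.9, 236 and 89.0 CPM in vehicle and 65.1, 70.1, 64.1 and 58.1 CPM with TP-472. Without vehicle replicate 3, neither SHC1 (log2 fold change -0.58) nor MAP2K2 (-0.51) exceeded 1.5-fold, and 3 genes of the cascade were called higher and 2 lower, in place of 2 and 5. HRAS, which the study had picked, was gained (0.67, adjusted p = 1.52e-04). With the GC trend removed, MAPK3 (-0.45, adjusted p = 0.0761), SHC1 (-0.49) and MAP2K2 (-0.52) were not called. MAPK3 was still called lower without vehicle replicate 3 (-0.70) and, close to the limit of 1.5-fold, with the GC trend removed as well (-0.59). Leaving out TP-472 replicate 1, 2 or 3 also left 2 genes of the cascade called lower, and leaving out vehicle replicate 1 or TP-472 replicate 4 left 3. MAP2K2 lost its call without vehicle replicate 1 or any TP-472 library (log2 fold change -1.08 to -0.94, adjusted p = 0.0522 to 0.0923).

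Among JNK, p38 and the remaining MAP kinases, 3 of 8 genes tested were called lower and none higher (median -0.32). MAPK10, a JNK gene, fell from 6.85, 4.04, 4.22 and 4.65 CPM to 1.73, 1.52, 1.77 and 1.77 CPM (log2 fold change -1.54, SE 0.21, adjusted p = 9.31e-04). MAPK12 and MAPK11, both p38 genes, fell by 0.96 (adjusted p = 0.0209) and 0.89 (adjusted p = 0.0239). Vehicle replicate 3 held 127 CPM of MAPK12, against 57.5 to 60.2 CPM in the other vehicle libraries. MAPK12 was not called without any 1 of the TP-472 libraries (adjusted p = 0.0503 to 0.0607), nor was MAPK11 without TP-472 replicate 1, 3 or 4 (adjusted p = 0.0626 to 0.0738), and without TP-472 replicate 1, 3 or 4 the list had 1 call in place of 3. Without vehicle replicate 3 the log2 fold change of MAPK12 was -0.59, and with the GC trend removed both p38 genes were at -0.45 and not called. MAPK4 and MAPK13 were under the filter (exact permutation tests, p = 0.914 and 0.0857; adjusted p = 0.914 and 0.15).

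Of 12 transcription factors and nuclear kinases that respond to ERK, 2 were called higher and 1 lower (median 0.04). ETS2 rose from 6.59 ± 1.33 to 13.5 ± 0.757 CPM (log2 fold change 1.03, adjusted p = 0.00167) and ETS1 from 109 ± 21.4 to 211 ± 11.1 CPM (0.96, adjusted p = 0.00206; SD, n = 4 each, edgeR). CIC, a repressor whose known targets include ETV4, ETV5 and DUSP6, was measured at 61.7, 30.0, 240 and 31.5 CPM in vehicle and at 22.9, 21.7, 16.7 and 24.2 CPM with TP-472. The groups did not overlap, and vehicle replicate 3 was far above the rest. The log2 fold change of CIC was -2.09 (SE 0.64, adjusted p = 0.0325), and -0.94 (adjusted p = 0.00792) without vehicle replicate 3, when 2 genes of the list were called lower. CIC was not called without vehicle replicate 1 (log2 fold change -2.24, adjusted p = 0.0507). Nor was it called without any 1 of the TP-472 libraries (-2.15 to -1.99, adjusted p = 0.0722 to 0.089). The list had no gene called lower without vehicle replicate 1 or TP-472 replicate 1, 2 or 3.

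The labelled cell type was compared with markers. Of 8 smooth muscle genes 7 had a mean above 1 CPM, with CALD1 the most abundant and MYH11 at 0.00 to 0.26 CPM. MYH11, under the filter, had 0, 0, 0 and 1 counts in vehicle and 10, 8, 7 and 10 counts with TP-472, without overlap. The summed level of the 8 genes was 438, 478, 522 and 480 CPM in vehicle and 379, 377, 372 and 370 CPM with TP-472. Of 7 tested, 3 were called lower (DES, LMOD1 and TAGLN), against 4 without vehicle replicate 3 and 2 with the GC trend removed. DES and LMOD1 exceeded 1 CPM in 4 vehicle libraries and 0 TP-472 libraries, so both passed the filter through the vehicle group. VIM, a mesenchymal gene, was between 1846 and 3536 CPM in every library. The 4 epithelial genes, led by KRT18, summed to 8.82, 10.9, 11.6 and 10.7 CPM in vehicle and to 19.7, 20.7, 19.1 and 16.9 CPM with TP-472, with 1 of 2 tested called higher. KRT18 was at 7.37 ± 0.869 CPM in vehicle and 15.6 ± 1.47 CPM with TP-472 (SD, n = 4 each). EPCAM and CDH1, which define epithelial cells, were under the filter. EPCAM was at 0.729 ± 0.0981 and 0.244 ± 0.0476 CPM, with every TP-472 value below the vehicle values, and CDH1 at 0.415 ± 0.236 and 0.414 ± 0.172 CPM. Leukocyte genes summed to at most 1.07 CPM and endothelial genes to at most 0.580 CPM in any library. At these low levels, leukocyte genes summed to 0.448 to 0.722 CPM in vehicle and 0.800 to 1.07 CPM with TP-472. Endothelial genes summed to 0.0553 to 0.143 CPM in vehicle and 0.413 to 0.580 CPM with TP-472. PTPRC, a marker of leukocytes, and CD3E, a marker of T cells, were at or near 0. The part of the smooth muscle and epithelial genes in the results above was not tested.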

How the data were processed

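RNA of SK-UT-1 cells (TP-472 or vehicle, 4 libraries each) was sequenced. The values deposited by the authors are estimated counts: Salmon 1.4.0 transcript estimates summed by gene with tximport and GENCODE 34 (GRCh38), neither scaled nor filtered. They were rounded, scaled by TMM, filtered (over 1 CPM in at least 4 libraries, 14073 genes) and tested by quasi-likelihood in edgeR 4.0.16 (R 4.3.3), with Benjamini-Hochberg adjustment over all genes tested, with no further term. Calls used the study's limits: more than 1.5-fold, with adjusted p-values under 0.05. Pathway list genes outside the members, under the filter and with a mean of at least 0.1 CPM had an exact permutation test over the 70 assignments of the libraries.

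The members and lists were chosen with earlier results of these data known. The lists were partial and came from general knowledge. Genes named were all members, all tested genes of the other MAP kinase phosphatase and Sprouty and Spred lists, the 3 called genes with the largest rise and fall in each other pathway list, MAPK3, FOS, EGR1, ETV4, ETV5, and the 3 genes most like the members with the largest rise and fall; other genes named were chosen after their values were seen, and 1 gene that the rule names is not reported here. Coordinates, exon lengths (merged over protein-coding transcripts) and GC content came from GENCODE 29 on GRCh38, and 99.3% of genes tested had a GC content. Promoters came from RefSeq.

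Alternatives were RLE scaling, library totals, DESeq2 1.42.0, limma-voom with quality weights (limma 3.58.1), other filters, a replicate block, unrounded counts, no fold limit and each library left out. Removal of the GC trend (loess, span 0.5) was chosen after seeing the data. The fits were tested on simulated data. No 2 libraries were copies: the lowest mean chi-square of a pair was 12.8, where counting error alone would give values near unity. Library totals of 32574672 to 38545464 counts leave the spread between libraries as the main error of genes well above the filter.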

Additional observations from a re-analysis of the deposited data

Results flagged for a closer look

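Among the 82 groups of 4 libraries of the named genes, 14 held a library whose gap to its nearest neighbour, as a share of the range of its group, exceeded Dixon's critical value. Chance gives about 1 in 20 groups. Vehicle replicate 3 was that library in 9 of them, and 4 of the 14 were in the TP-472 group.

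Among the members, vehicle replicate 3 was high for SPRY2 (1.56 CPM, against 0.860 to 0.940 in the other vehicle libraries) and TP-472 replicate 4 was high for SPRED1 (86.5 CPM, against 70.6 to 71.9). Vehicle replicate 3 was also high for DUSP8 (5.14 CPM), SPRED3 (8.72 CPM), MAP2K2 (236 CPM), SHC1 (396 CPM), MAPK12 (127 CPM), CIC (240 CPM), EGR1 (38.6 CPM) and ETV4 (12.8 CPM). Vehicle replicate 1 was low for DUSP2 (1.27 CPM, against 2.10 to 2.19). In the TP-472 group, replicate 4 was high for ERRFI1 (613 CPM), replicate 3 low for MAP2K1 (67.5 CPM, against 69.7 to 70.1) and replicate 2 low for MAPK10 (1.52 CPM, against 1.73 to 1.77). The part of the GC trend of vehicle replicate 3 in these values was not tested.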

How the results depend on the processing

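Of 160 comparisons of a member's value with an alternative, 156 moved by less than the spread between libraries, 4 by more, and none turned a called member. That spread includes vehicle replicate 3, so it is wide for members that this library set apart. For DUSP7, the shift from 0.01 to 0.50 without that library counted among the 156, as did its changes of sign. The 156 are therefore not read as a measure of stability. For the other named genes, 487 kept direction and call, 46 lost the call, 5 gained it without a change of sign, and 14 changed sign, 3 of which (all EGR1) also gained a call. Calls near 1.5-fold, such as those of DUSP16 and DUSP22, changed with single libraries, and the few counts of DUSP4 limit its precision.

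All genes called higher numbered 2666 with DESeq2 (which tested more genes) against 1693, and 1303 to 1824 with 1 library left out. Those called lower numbered 1387 to 2399 with 1 library left out, against 2096. Genes called lower with 1 library left out numbered 0 to 1 for atypical phosphatases, 2 to 6 for the ERK cascade, 0 to 2 for the ERK response factors, 1 to 3 for JNK, p38 and other MAP kinases, 1 to 2 for other inhibitors and 0 to 1 for other MAP kinase phosphatases, for which 1 to 2 were called higher. With limma-voom, genes called lower were 0 atypical phosphatases, 2 of the cascade and 1 of JNK and p38, and 2 other MAP kinase phosphatases were called higher. Without a fold limit, 2 atypical phosphatases, 2 response factors and 2 other inhibitors were called lower. With over 5 CPM required, 1 gene of JNK and p38 was called lower. With DESeq2, 2 other inhibitors were called lower, and 1 other Sprouty or Spred gene, SPRY1, was called higher, as it was without the filter. With the GC trend removed, chosen after seeing the data, genes called lower were 0 atypical phosphatases, 1 of the cascade, 3 response factors, 1 of JNK and p38 and 2 other inhibitors. With vehicle replicate 3 left out as well, they were 0, 2, 2 and 1 for the first 4 of these lists, and 2 other MAP kinase phosphatases were called higher. The causes were not tested.

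Among the other named genes, log2 fold changes that changed sign were those of DUSP8 (-0.13 to 1.25 with 1 library left out; -0.08, -0.13 and -0.07 without vehicle replicate 1, 2 and 4), DUSP9 (0.14 with the GC trend removed and 0.019 with vehicle replicate 3 also left out), SPRY3 (-0.33 to 0.023 with 1 library left out), SPRED3 (-0.66 to 0.090 with 1 library left out, 0.23 with limma-voom, 0.090 without vehicle replicate 3, 0.18 with the GC trend also removed) and EGR1 (-0.34 to 0.73 with 1 library left out, 0.72 with limma-voom, 0.73 without vehicle replicate 3, 0.20 with the GC trend removed, 0.75 with both). None was called in the original fit. Among the members, DUSP7 and SPRED2, neither called with all libraries, also changed sign. With 1 library left out DUSP7 ran from -0.18 to 0.50 and SPRED2 from -0.27 to 0.11, and with limma-voom DUSP7 was at 0.58 and SPRED2 at 0.25.

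The groups share replicate numbers, but same-numbered libraries did not deviate together (r = -0.06, 0.12, -0.17 and -0.18 for replicates 1 to 4), and no vehicle library was matched best by the TP-472 library of its own number. With a replicate block, 1500 genes were called higher and 1555 lower, and EGR1 was at 0.26. Called lower were then 0 atypical phosphatases and 0 response factors. The block left 4 genes called lower in the ERK cascade in place of 5, and 2 among JNK, p38 and other MAP kinases in place of 3.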
